A study of Homo sapiens with 6 samples.

Results

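The integrated stress response is the programme by which cells slow translation and switch on rescue or death genes. Stress-activated kinases phosphorylate the initiation factor eIF2, most translation slows, and the mRNA of the transcription factor ATF4 is translated instead. ATF4 then drives amino acid supply genes together with further regulators, among them CHOP, the product of DDIT3, which can turn a lasting response towards cell death. Regulators of this programme, 10 genes in all, were followed: the bZIP transcription factors ATF4, ATF3 and DDIT3, the cofactors TRIB3 and NUPR1, the feedback phosphatase subunit PPP1R15A, the glutathione-degrading enzyme CHAC1, the mTORC1 inhibitors SESN2 and DDIT4, and the secreted activin subunit INHBE.

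The 10 genes are 10 of 19775 genes that the array annotation names singly, and all probe sets with their symbols were taken, 15 in all. The genes were proposed with the control and miR21 values of these arrays already in view. Their differences between the precursors are therefore a description, with no test, and support nothing beyond themselves.

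Cells of SKOV3, an established line from a human ovarian cancer that the labels call high grade serous, were seeded in dishes and transfected a day later. One group received a miR21 precursor at 5 nM for 24 h and the other a negative control precursor for 24 h, each on 3 arrays numbered 1 to 3. All cells were the same line in the same serum-supplemented medium, and untransfected cells were not analysed here. The labels do not say whether the numbers are separate cultures, so a p-value here covers the spread among these arrays alone, which may be technical, and the number of arrays limits the precision.

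The agent was a precursor of the microRNA below, printed because it is the only difference between the groups that the labels name. Its seed, bases 2 to 8, is in capitals, and the sequence is that of RefSeq on GRCh38.p14 (chr17:59841273-59841294, plus strand).

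hsa-miR-21-5p: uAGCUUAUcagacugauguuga

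Promoter sequence was shown for the genes whose window holds a stress-response motif, since the 10 genes varied together over the arrays. RefSeq windows on GRCh38.p14 run from 250 bases before to 50 bases after a start site, and 13 windows matched 8 of the 10 genes. NUPR1 and INHBE had no entry. Both strands were searched for TGATGNAA, the core of the C/EBP-ATF element that ATF4 binds, for TTGCATCA, which is a special case of it on the opposite strand, for the CRE motif TGACGTCA, for TGACGTAA, for the long ER stress element and for CCAAT. Capitals mark every motif found except CCAAT, in CHAC1 (chr15:40953221-40953520, plus strand), PPP1R15A (chr19:48872171-48872470, plus strand) and ATF3 (chr1:212565157-212565456, plus strand).

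CHAC1: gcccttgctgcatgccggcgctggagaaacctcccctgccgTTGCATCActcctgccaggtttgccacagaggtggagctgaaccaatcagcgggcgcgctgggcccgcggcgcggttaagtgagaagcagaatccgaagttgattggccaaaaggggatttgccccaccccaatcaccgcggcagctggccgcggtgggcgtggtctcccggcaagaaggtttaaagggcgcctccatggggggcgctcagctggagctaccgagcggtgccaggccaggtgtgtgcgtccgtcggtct

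PPP1R15A: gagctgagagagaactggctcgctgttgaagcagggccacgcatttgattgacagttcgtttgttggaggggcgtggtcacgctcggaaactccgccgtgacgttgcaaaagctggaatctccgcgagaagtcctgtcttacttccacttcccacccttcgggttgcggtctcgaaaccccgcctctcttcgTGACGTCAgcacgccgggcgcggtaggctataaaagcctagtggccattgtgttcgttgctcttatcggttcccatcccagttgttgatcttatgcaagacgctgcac

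ATF3: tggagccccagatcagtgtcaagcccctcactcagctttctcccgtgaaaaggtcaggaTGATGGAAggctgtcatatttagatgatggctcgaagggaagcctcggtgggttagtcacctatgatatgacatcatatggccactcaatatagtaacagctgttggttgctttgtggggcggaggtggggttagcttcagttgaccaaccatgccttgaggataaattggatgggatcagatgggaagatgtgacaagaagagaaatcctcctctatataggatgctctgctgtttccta

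The CHAC1 window holds TTGCATCA at position -209 from the start site, a motif found in 0.866% of all 35116 windows. The PPP1R15A window holds the CRE motif at position -58, which 1.85% of all windows contain. ATF3 holds TGATGNAA at position -191 in one of its 2 windows, and 3.62% of all windows contain that motif. CCAAT stood in 6 of the 13 windows, against 34.6% of all windows, including those of DDIT3, SESN2 and DDIT4. TGACGTAA (0.416% of all windows) and the ER stress element (0.0769%) stood in 0 of the 13. A match is only a match of letters in this window, and the lack of one says nothing of the factor.

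The regulators were higher with miR21 in replicate numbers 1 and 2 and differed less in number 3. The 10 genes, each read by its probe set of highest mean signal, had a median log2 difference (miR21 minus control) of 2.38 in number 1 and 2.59 in number 2. The median in number 3 was 0.18. Over the 12204 genes tested the medians were -0.03, 0.00032 and -0.00025. All 10 were higher in numbers 1 and 2, and 6 of 10 were higher in number 3. With all-gene medians near 0, about as many of all genes were higher as lower in each number. The count in number 3 stands near that share. A difference within 1 number rests on 1 array against 1 and has no replicate check of its own.

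**Figure D1:**
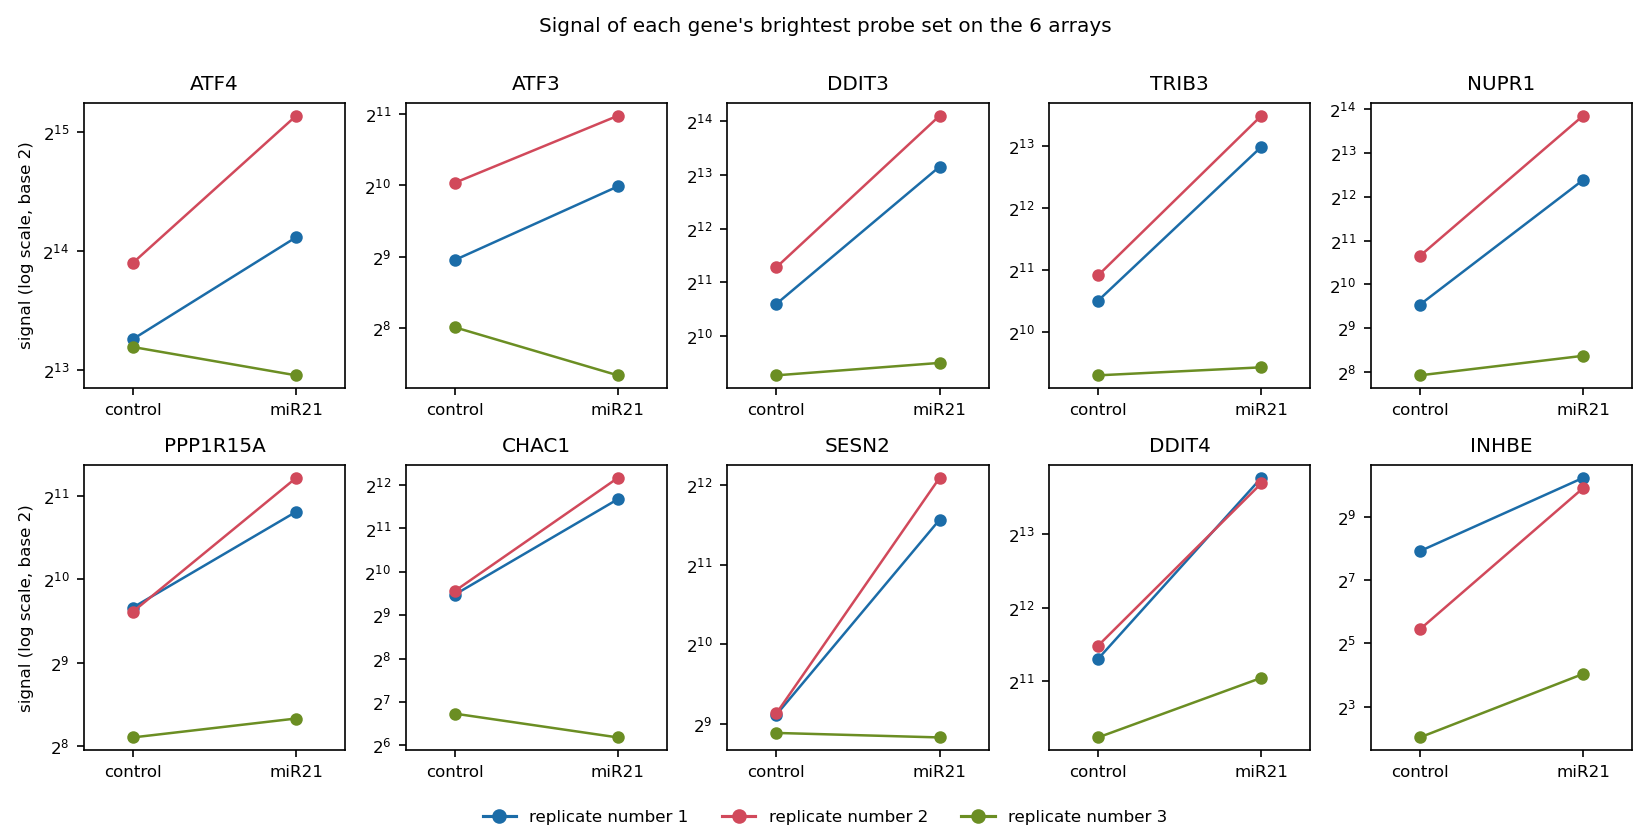
Signal of the brightest probe set of each gene on the 6 arrays (y axis, deposited signal on a log scale of base 2, with its own range for each gene), for control and miR21 arrays (x axis), with a line joining the arrays of 1 replicate number. In numbers 1 and 2 the line goes up in all 10 panels, while number 3 stays lowest on the miR21 side in all 10; DDIT3 goes from 1552 to 9112 in number 1 and from 618 to 725 in number 3.

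DDIT3 encodes CHOP, a transcription factor that dimerises with C/EBP proteins. Control arrays 1, 2 and 3 gave signals of 1552, 2489 and 618, and miR21 arrays 1, 2 and 3 gave 9112, 17571.5 and 725. The miR21 arrays 1 and 2 lay above every control array, and miR21 array 3 lay below control arrays 1 and 2, so the groups overlapped. The gene was 5.87-fold and 7.06-fold higher in numbers 1 and 2 and 1.17-fold higher in number 3, a mean log2 difference of 1.87 ± 1.42 (SD over 3 numbers).

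ATF4 itself, which is regulated mainly at translation, differed less. With the control precursor its signals were 9783, 15258 and 9346 in numbers 1, 2 and 3, and with miR21 they were 17713, 35964 and 7923. The miR21 array of number 3 was the lowest of all 6 arrays, and that of number 2 the highest. The differences were 0.86, 1.24 and -0.24 on the log2 scale, with a mean of 0.62 ± 0.77 (SD over 3 numbers). The level of ATF4 protein was not analysed here.

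ATF3, a stress-induced bZIP factor, had 3 probe sets, and they went different ways. The brightest gave control signals of 495, 1050.4 and 258 and miR21 signals of 1015, 2018 and 161. It was about 1 log2 unit higher in numbers 1 and 2 (1.03 and 0.94) and lower in number 3 (-0.68), with a mean of 0.43 ± 0.96 (SD over 3 numbers). A second probe set above the signal filter was higher in all 3 numbers, by 0.43, 0.51 and 0.29. The dimmest, below the filter, was lower in numbers 1 and 2 (-1.86 and -0.64) and near equal in number 3 (0.01). The mean of the 3 probe sets differed by 0.0061, so a direction for ATF3 depends on the probe set. With its brightest probe set the sign also turned without control replicate 3 (-0.06) or without miR21 replicate 2 (-0.34).

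TRIB3 is a pseudokinase that ATF4 and CHOP switch on and that restrains them in turn. The control signals of its brighter probe set were 1459.9, 1937 and 634, and the miR21 signals 8155, 11543 and 693. These were 5.59-fold and 5.96-fold higher values in numbers 1 and 2 and a 1.09-fold higher one in number 3. The dimmer probe set was 11.4-fold and 7.95-fold higher in numbers 1 and 2, while in number 3 it was lower by 1.00 on the log2 scale (168 to 84.0). The probe sets thus shared the direction in numbers 1 and 2 and not in number 3.

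NUPR1, a small chromatin-associated stress protein, had a similar pattern to DDIT3. Control arrays gave 743, 1605 and 244, and miR21 arrays gave 5333, 14716 and 332. The miR21 array of number 3 lay below control arrays 1 and 2. NUPR1 was 7.18-fold, 9.17-fold and 1.36-fold higher in numbers 1, 2 and 3, a mean log2 difference of 2.16 ± 1.50 (SD over 3 numbers). By its difference it stood 13th, 15th and 1365th among the 12204 genes in numbers 1, 2 and 3.

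PPP1R15A, also called GADD34, brings a phosphatase to eIF2 and so ends the response. Its brighter probe set gave 809.8, 782 and 274 with the control precursor and 1798, 2384 and 321 with miR21. The 2 probe sets went the same way throughout: 1.15, 1.61 and 0.23 for the brighter and 1.63, 1.45 and 0.03 for the dimmer, as log2 differences in numbers 1, 2 and 3.

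CHAC1, which splits glutathione, was higher with miR21 in numbers 1 and 2 and lower in number 3. The control arrays gave 710.4, 752 and 106 and the miR21 arrays 3270.3, 4598 and 72.6. The array of number 3 was thus the lowest of its group on both sides, and its miR21 value was the lowest of all 6. CHAC1 was 4.60-fold and 6.12-fold higher in numbers 1 and 2 and lower in number 3 (log2 difference -0.55), with a mean of 1.42 ± 1.72 (SD over 3 numbers).

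Both mTORC1 inhibitors had large differences in numbers 1 and 2 and smaller ones in number 3. SESN2, a leucine sensor, gave control values of 555, 562 and 474 on its brighter probe set, while its miR21 arrays gave 3024, 4349.6 and 456. The other SESN2 probe set had less even control values (348, 199 and 233) and differences of 2.21, 2.54 and 0.04, close to the 2.44, 2.95 and -0.06 of the first. DDIT4, also called REDD1, which acts through the TSC complex, gave 2524, 2858 and 1203 without miR21 and 13914, 13209 and 2109.9 with it. It was 5.51-fold, 4.62-fold and 1.75-fold higher. The mean log2 difference of DDIT4 was 1.83 ± 0.89 (SD over 3 numbers).

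INHBE, the activin E subunit and a known ATF4 target, was dim on the control arrays. Its signals were 241, 43.5 and 4.08 there and 1203, 960.4 and 16.4 with miR21. The log2 differences of 2.32, 4.46 and 2.01 gave a mean of 2.93 ± 1.34 (SD over 3 numbers). Both values of number 3 lay far below the filter signal of 65.5, and the control value of number 2 (43.5) also lay below it. Signals that low are noisy, and with 16 added to every signal the mean difference was 2.32. The control mean (log2 5.13) lay below the filter (log2 6.03), so INHBE passed through its miR21 arrays and had to differ.

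**Figure D2:**
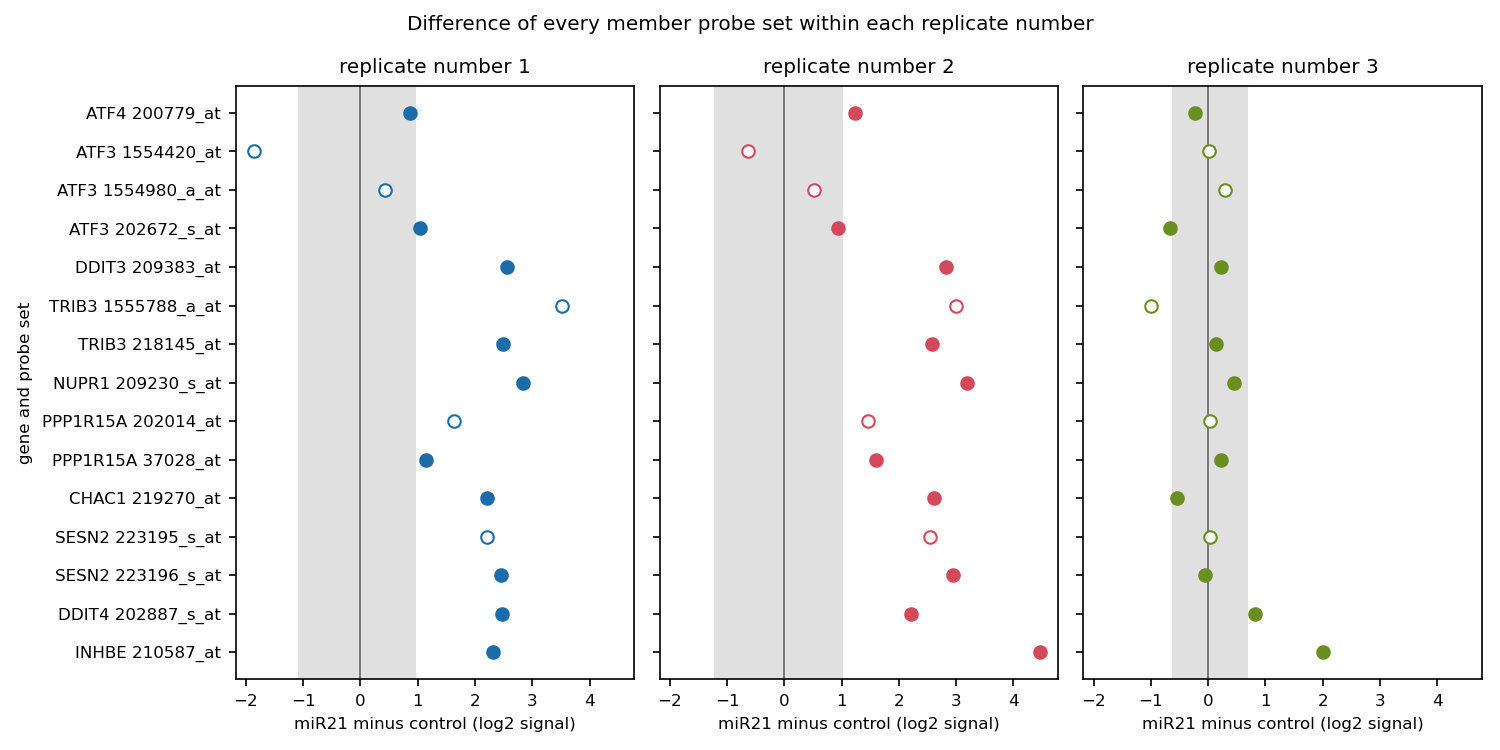
Log2 difference, miR21 minus control, of all 15 probe sets (rows) within replicate numbers 1, 2 and 3 (panels). Filled points are the probe set of highest mean signal of each gene, open points the others, and the grey band spans the 5th to 95th percentile of all 12204 genes tested. In numbers 1 and 2, 14 of the 15 probe sets lie above 0. In number 3, 10 of 15 do, with DDIT4, INHBE, the dimmer TRIB3 and the brightest ATF3 probe set outside the band. The median of all genes tested is near 0 in each number (-0.03, 0.00032 and -0.00025).

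Against the whole table the counts read as follows. Of the 10 genes, 8 were over 1 log2 unit higher in both numbers 1 and 2, as were 2.34% of the 12204 genes tested; ATF4 and ATF3 were the others. In all 3 numbers 6 of the 10 were higher (20.3% of all genes), and 0 were lower (20.9%). The groups did not overlap with miR21 higher for 0 of the 10, against 3.38% of all genes. INHBE, which passed the filter through its miR21 arrays and had to differ, was counted in both the 8 and the 6. The genes were chosen with this contrast in view, so nothing is read from these shares.

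In limma without a block, 0 of the 10 genes and 0% of all genes passed at an adjusted p under 0.05. At an unadjusted p under 0.05 stood 1 of the 10, DDIT4, and 2.44% of all genes. Blocked on the replicate number, limma called 0 of the 10 and 0.0328% of all genes, and an unadjusted p under 0.05 was held by 8 of the 10 and by 20.1% of all genes. INHBE, which passed the filter through its miR21 arrays, was among these 8. These counts describe genes picked on the same contrast.

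**Figure D3:**
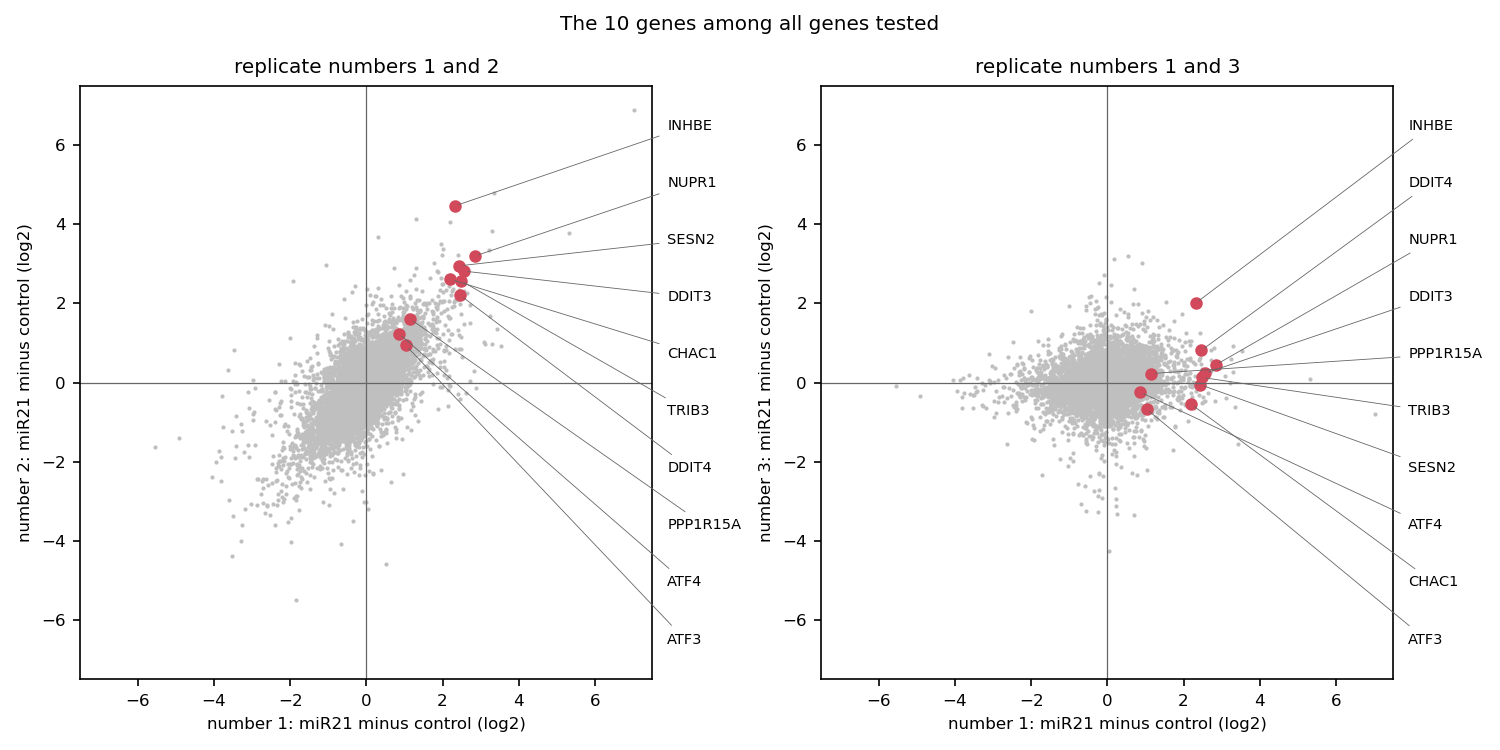
Log2 difference, miR21 minus control, in replicate number 1 (x axis) against number 2 (left) and number 3 (right), for the 12204 genes tested (grey) and the 10 regulators (red, named). The 10 sit in the upper right with number 2, from 0.86 to 2.84 along the x axis, and between -0.68 and 0.44 on the y axis with number 3, apart from INHBE and DDIT4.

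By the brightest probe sets, array number 3 also had the lowest level of these genes within each group. On the control arrays, 10 of 10 genes were lowest on array 3, as were 39.1% of all genes. On the miR21 arrays it was again 10 of 10, against 34% of all genes. With arrays centred on their median the control count was 7 of 10 (19.1% of all genes), with ATF4, ATF3 and SESN2 lowest elsewhere, and the miR21 count 10 of 10 (15.4%). With quantile normalization the control count was 9 of 10 (33.4% of all genes), without SESN2, and the miR21 count 10 of 10 (31.2%). Of all 15 probe sets as deposited, 13 were lowest on control array 3. The dimmer SESN2 and TRIB3 probe sets were not. Control array 3 lay below the mean of control arrays 1 and 2 by log2 differences of -4.65 for the dim INHBE, -2.78 for CHAC1, -2.16 for NUPR1, -1.67 for DDIT3 and -0.24 for SESN2. The level without miR21 thus varied between control arrays too; for SESN2 the SD was 0.14 on the log2 scale (n = 3) on the brighter probe set and 0.42 on the other.

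Other properties of the arrays followed the replicate number too. The median signal was 125 and 117 on the arrays of number 1 and between 55.2 and 61.9 on the other 4. The ratio of the 3′ to the 5′ probe set of ACTB, a sign of RNA integrity, was 1.79 and 1.96 in number 1, 2.88 and 3.32 in number 2, and 1.29 and 1.36 in number 3, control first. The same ratio of GAPDH lay between 0.90 and 1.07 on the 6 arrays and did not follow that order. The part of these properties in the difference between the numbers was not tested. Of the epithelial markers 9 of 11 were above the filter, with PAX8 between 6601 and 10255, while WT1 (41.6 to 71.5) and MUC16 (3.12 to 27.3) were below it. Of the fibroblast, leukocyte, endothelial and adipocyte markers 2 of 7, 1 of 5, 1 of 4 and 0 of 4 were above it. Their summed signals on control and miR21 arrays were 417 to 1102.5 and 364 to 1293 (fibroblast), 162 to 706 and 134 to 493 (leukocyte), 91.7 to 729 and 76.0 to 567 (endothelial), and 23.7 to 323 and 38.4 to 149 (adipocyte). PTPRC, VWF, CDH5, ADIPOQ and DCN were all below the filter, while COL1A1, COL1A2, CD79A and PECAM1 were above it. On the arrays of number 1, control first, COL1A1 gave 675 and 824 and COL1A2 172 and 160. CD79A gave 606 and 378 there, and PECAM1 483 and 397. For each of these lists, the highest sum of each group was on the array of number 1.

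The 10 genes also varied together over the 6 arrays. Each gene correlated with the mean of the other 9 at r between 0.90 (ATF3, ATF4) and 0.99 (TRIB3, PPP1R15A, DDIT3). This describes 6 arrays that share cells and scaling. The 10 were proposed with these values in view, so a high r supports nothing further. Among 8468 other genes with a range of at least 1 log2 unit, the 5 most like the mean profile of the 10 were ETV5, an ETS factor downstream of ERK (r = 0.996), LAMP3, a lysosomal membrane protein gene (0.995), SLC43A1, a transporter of large neutral amino acids (0.993), SLC22A15 (0.992) and RNF44 (0.991). Their log2 differences in numbers 1, 2 and 3 were 1.40, 1.84 and 0.19 for ETV5 and 1.46, 2.32 and -0.25 for SLC43A1. LAMP3 (mean 0.72), SLC22A15 (0.81) and RNF44 (0.51) had smaller differences. The r of these 5 genes are the highest out of 8468 over only 6 arrays, so they too support nothing further.

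Genes that ATF4 drives for amino acid supply showed the same contrast between numbers. This list and those that follow were chosen with earlier results of these data known, so their counts are only a description. Of 19 tested, 13 were over 1 log2 unit higher in both numbers 1 and 2 (2.34% of all genes) and 0 lower by as much. Their median difference was 1.27, 1.36 and 0.0041 in numbers 1, 2 and 3. PHGDH, the first enzyme of serine synthesis, gave 550.1, 571 and 442 without miR21 and 2925, 5368 and 454 with it. PCK2, a mitochondrial carboxykinase, differed by 1.99, 2.50 and 0.06, and the cystine transporter gene SLC7A11 by 1.38, 1.36 and 0.63, with another probe set at a mean of -0.12. ASNS, asparagine synthetase, chosen here after its values were seen, differed by 2.38, 2.10 and -0.07. In limma 0 of the 19 passed with or without the block. At an unadjusted p under 0.05 stood 1 without the block (2.44% of all genes). With the block 15 did, all higher (20.1% of all genes, either direction).

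Of 20 other reported ATF4 or CHOP targets, 6 were over 1 log2 unit higher in both numbers 1 and 2 (2.34% of all genes) and 1 lower by as much. In all 3 numbers 11 of the 20 were higher and 2 lower, against 20.3% and 20.9% of all genes. GDF15, a secreted stress factor, differed by 1.84, 1.53 and 0.71, and the autophagy gene MAP1LC3B by 1.75, 1.74 and 0.02. ADM2, a peptide hormone gene, was higher throughout (0.57, 1.23 and 1.16), at dim signals of 46.0 and 103 in number 3. FGF21 lay below the filter. In limma 0 of the 20 passed under either design. At an unadjusted p under 0.05 stood 2 without the block (2.44% of all genes). With the block 15 higher and 1 lower did (20.1% of all genes, either direction).

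The machinery upstream of ATF4 went both ways. Over 22 tested genes for eIF2 kinases, eIF2, its exchange factor eIF2B and its phosphatases, the median was 0.06, -0.25 and 0.01 in numbers 1, 2 and 3. In both numbers 1 and 2, 0 of the 22 were over 1 log2 unit higher, against 2.34% of all genes. The eIF2B subunit gene EIF2B4 differed by 0.74, 0.99 and 0.13 and EIF2B2 by 0.57, 0.41 and 0.06, while GCN1, an activator of the kinase GCN2, differed by -0.66, -0.36 and -0.18. The eIF2 subunit gene EIF2S2 differed by 1.07, 0.89 and -0.10, and the kinase genes EIF2AK2 and EIF2AK3 by -0.66, -1.32 and 0.43 and by -0.48, -1.30 and 0.38; these 3 were named after their values were seen. The phosphorylation of eIF2 was not analysed here. In limma 0 passed under either design. At an unadjusted p under 0.05 stood 0 without the block (2.44% of all genes). With the block 2 higher and 2 lower of the 22 did, near the 20.1% of all genes in either direction.

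The bZIP partners were mixed. Of 15 tested, 3 were over 1 log2 unit higher in both numbers 1 and 2 (2.34% of all genes): FOS, CEBPB and CEBPG. CEBPB, a C/EBP partner of CHOP, gave control signals of 4807, 5483 and 3683 and miR21 signals of 12098, 14156 and 4539. The AP-1 gene FOS differed by 2.72, 1.51 and 0.29, at control signals between 31.1 and 116. JUN went the other way, by -1.59, -1.46 and -0.20, and its other 3 probe sets had means between -1.47 and -0.99. CEBPG, chosen after its values were seen, differed by 1.04, 1.17 and -0.13. In limma 0 of the 15 passed under either design. At an unadjusted p under 0.05 stood 1 without the block (2.44% of all genes). With the block 6 higher and 2 lower did (20.1% of all genes, either direction).

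**Figure D4:**
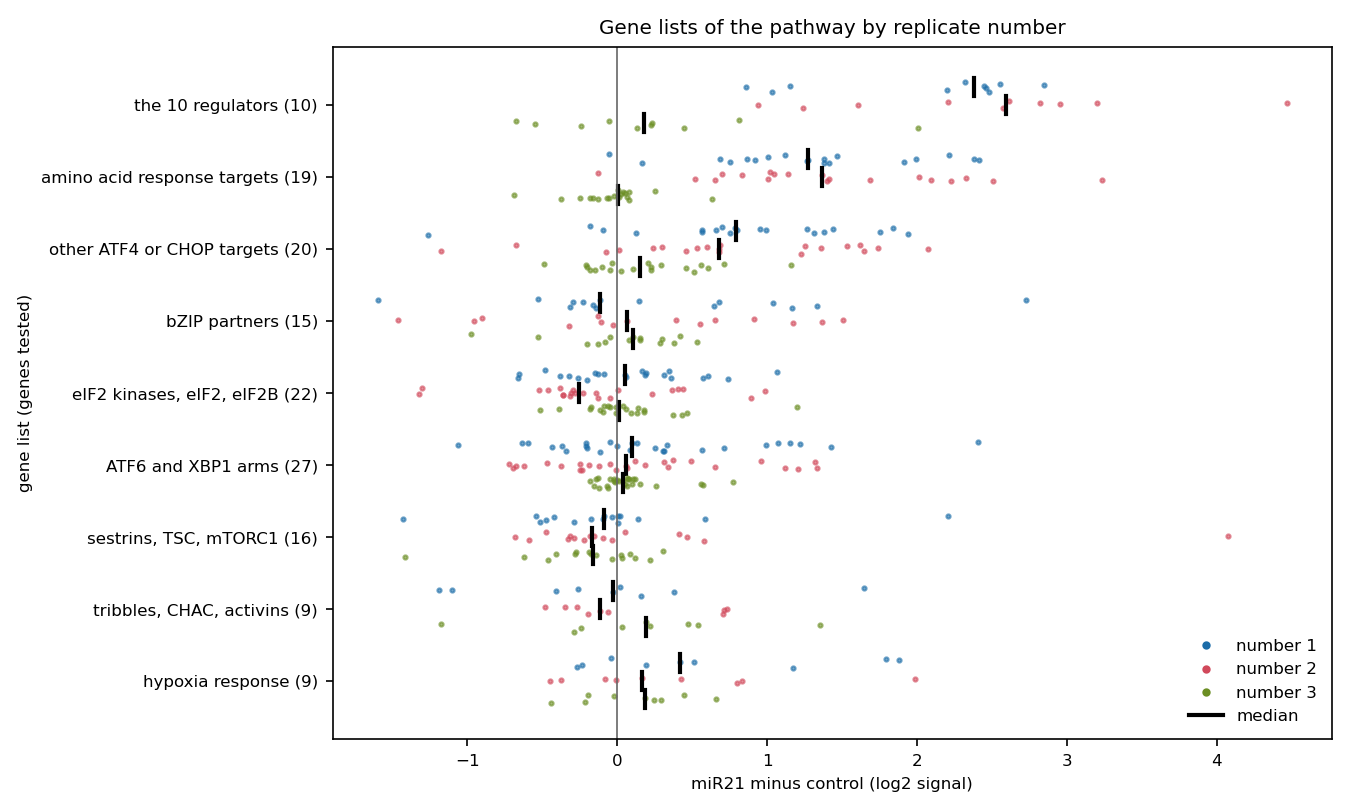
Log2 difference, miR21 minus control (x axis), of the tested genes of 9 lists (rows, number of genes in brackets) within replicate numbers 1, 2 and 3 (colours), with a black bar at each median. The medians of the 10 regulators (2.38, 2.59 and 0.18) and of the amino acid response targets (1.27, 1.36 and 0.0041) stand to the right in numbers 1 and 2, and those of the eIF2 and the ATF6 and XBP1 lists stay near 0.

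Genes of the ATF6 and XBP1 arms of the unfolded protein response, which share ER stress with the ATF4 arm, were nearer 0 as a list. Their median over 27 tested genes was 0.10, 0.06 and 0.04, and 4 of the 27 were over 1 log2 unit higher in both numbers 1 and 2 (2.34% of all genes), each read by its brightest probe set. HSPA5, the ER chaperone BiP, differed by 1.22, 1.33 and 0.10 on its brightest probe set and by 0.05, 0.85 and 0.16 on another. The co-chaperone gene DNAJB9 differed by 1.42, 1.21 and 0.77, with other probe sets at 1.16, 0.77 and 1.60 and at 1.52, 0.16 and -0.51. ERN1, the sensor IRE1, differed by 2.40, 1.32 and 0.56 on its brightest probe set, while 2 others had means of -0.46 and -0.43. The place of HSPA5, DNAJB9 and ERN1 among the 4 thus depends on the probe set. The fourth of the 4 was HERPUD1 (1.07, 1.12 and -0.01), named after its values were seen. In limma 0 of the 27 passed under either design. At an unadjusted p under 0.05 stood 2 without the block (2.44% of all genes). With the block 6 higher and 2 lower did (20.1% of all genes, either direction).

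Relatives of the 10 genes went both ways. SESN1, a sestrin paralog, was lower in all 3 numbers (-0.51, -0.68 and -0.62), opposite to SESN2 in numbers 1 and 2. CASTOR1, an arginine sensor of the mTORC1 pathway, was lower as well (-1.43, -0.59 and -1.42), with another probe set at a mean of -1.15. TSC1, a subunit of the TSC complex, differed by -0.48, -0.09 and -0.18. DDIT4L, the paralog of DDIT4, was the 1 gene of the 16 tested over 1 log2 unit higher in both numbers 1 and 2 (2.21, 4.07 and -0.27; 2.34% of all genes), and was named after its values were seen. Over these 16 genes the median was -0.09, -0.17 and -0.16.

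Among 9 tested relatives of TRIB3, CHAC1 and INHBE, 0 were over 1 log2 unit higher in both numbers 1 and 2, against 2.34% of all genes. TRIB2 differed by 1.65, 0.73 and 0.54, and its other probe set had a mean of -0.01. INHA, the inhibin alpha subunit, differed by 0.38, 0.70 and 1.35 at dim signals of 14.8 and 37.9 in number 3. Its control mean on the log2 scale lay below the filter, so INHA was tested through its miR21 arrays and had to be higher there. FSTL3, an activin-binding protein gene, differed by -1.10, -0.35 and -0.24. In limma 0 of the 16 and 0 of the 9 passed under either design. At an unadjusted p under 0.05 stood 1 of each without the block (2.44% of all genes). With the block, 1 higher and 2 lower of the 16 did. Of the 9, 1 higher and 1 lower did. The share of all genes with the block was 20.1% in either direction.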

How the data were processed

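RNA was labelled with biotin and read on U133 Plus 2.0 arrays, per the labels' protocols. The table deposited by the authors holds 1 linear intensity per probe set and array, made with MAS5 per the submitters' processing notes, with its version not given in the sources used here. With 2% trimmed from either end, every array had a mean of 500.1. The arrays were therefore scaled to a common level, which hides any shift that most genes share. No build is named.

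Of 54675 probe sets, 62 are controls; of the others, 41091 carry 1 gene symbol in the platform annotation, 1801 carry several (not used) and 11721 are unnamed here. RefSeq (GRCh38.p14) held the Entrez identifiers of 41037. Each gene was read by its brightest probe set (highest mean log2). A gene was tested where that mean reached the median over all probe sets (log2 6.03), which kept 12204 of 19775. All 10 regulators and 14 of their 15 probe sets passed. No pseudocount was added.

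Groups were compared with limma 3.58.1 (R 4.3.3, eBayes with a trend, Benjamini-Hochberg at 0.05), and the steps were tested on simulated data. The simulated noise was set below the spread measured on these arrays, so that run does not show which changes could be called here. Replicate numbers, from the titles, pair the arrays here, since same-numbered arrays deviated together from their group means (r = 0.899, 0.639 and 0.636). Between unlike numbers, r was 0.411 for control 3 with miR21 2, 0.281 for control 2 with miR21 3, and negative otherwise. The 10 genes and the gene lists were chosen with earlier results of these data known. Named besides the 10 were, per list, the 3 genes of largest difference among those of 1 sign in all numbers, since 0 were called, and the 5 genes most like the 10 in profile. The alternatives were quantile normalization, median centring, 16 added to each signal, other filters and probe set rules, no variance trend, the replicate block, and arrays or replicate numbers left out.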

Additional observations from a re-analysis of the deposited data

How the results depend on the processing

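Of 130 recomputed differences of the 10 genes, 120 moved by less than the SD over replicate numbers, 8 moved by more with the same sign, and 2 turned sign, both for ATF3: -0.06 without control replicate 3 and -0.34 without miR21 replicate 2, the lowest of its fits (the highest, 1.48, was without miR21 replicate 3). The SD over replicate numbers holds the gap between number 3 and the others, and for 3 of the 10 genes it exceeded the mean difference. Large moves can thus lie within it. Without miR21 replicate 2, DDIT3 went from 1.87 to 0.94 and CHAC1 from 1.42 to 0.34. The count of 120 is therefore no measure of stability. The median over the 10 was 1.75 and lay between 1.73 and 1.85 under other scalings, filters and probe set rules. It was 0.94 without miR21 replicate 2 and 2.89 without miR21 replicate 3, the lowest and highest of all fits that left out arrays; the upper quartile filter and the fits without miR21 replicate 1 or 2 or without both arrays of number 1 or 2 held 9 of the 10 genes. The limma count over all genes was 0 in every fit without a block. The replicate block gave 4 genes (FZD5, KLHL2, SNRPC and SPRING1); the block fits that also left out both arrays of a number gave 41 (number 1 left out), 0 (number 2 left out, where 885 genes had an unadjusted p under 0.05) and 4099 (number 3 left out), each from 2 pairs. The block changed no other call. Dim signals limit INHBE and the third ATF3 probe set.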

Other observations

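DDIT4 is also a hypoxia response gene. Of the other 9 hypoxia genes tested, 3 were higher and 2 lower in all 3 replicate numbers, against 20.3% and 20.9% of all genes, with medians of 0.42, 0.17 and 0.19 in numbers 1, 2 and 3. VEGFA, the vascular growth factor gene, differed by 1.79, 0.80 and 0.66, and 2 of its 3 other probe sets by 1.33, 2.24 and -0.07 and by 1.79, 1.89 and -0.10. ADM, the adrenomedullin gene, differed by 1.18, 0.83 and 0.29, and ANKRD37 by -0.26, -0.37 and -0.44. NDRG1 differed by 1.88, 1.99 and -0.22, and was named after its values were seen. By brightest probe sets it alone of the 9 was over 1 log2 unit higher in both numbers 1 and 2 (2.34% of all genes). In limma 0 of the 9 passed with or without the block. At an unadjusted p under 0.05 stood 0 without the block (2.44% of all genes). With the block 4 did, all higher (20.1% of all genes, either direction).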
